A study of Mus musculus with 6 samples.

Results

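Cytochrome P450 families 1 to 3 were examined in liver RNA-seq of male C57BL/6 mice on a high-fat diet (HFD), in which the question was whether loss of the iron exporter ferroportin (FPN, gene Slc40a1) in hepatocytes changes liver gene expression. The members were the protein-coding genes of the deposited table whose symbol is Cyp, a family digit from 1 to 3, a subfamily letter and a number, 57 of the 45777 genes listed. Littermate controls (LT) carried the floxed Fpn allele on both chromosomes (Fpn f/f) without Cre, and Fpn-LKO mice carried the same floxed allele with Cre under the albumin promoter, which acts in hepatocytes, so that other liver cells keep the gene. Each group had 3 livers with 1 library each, all on the same diet and all labelled as the same batch. The labels give no age for these mice.

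P450 enzymes of families 1 to 3 are heme proteins of the endoplasmic reticulum that oxidize drugs, plant compounds, steroids and fatty acids, taking electrons from P450 reductase. The liver is their main site, and many are made mostly by hepatocytes around the central vein. Their transcription is set by ligand-sensing receptors such as the aryl hydrocarbon receptor for Cyp1a genes, CAR for Cyp2b genes and PXR for Cyp3a genes, and several mouse members differ between the sexes under growth hormone. The mouse genome holds them in tandem clusters of close relatives.

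The libraries held 43086184 to 47778683 counts, of which the members took 1.67% to 2.20%. Hepatocyte markers were present at a summed 53227 to 66159 CPM (counts per 1000000 reads, with library sizes adjusted by TMM factors), and the pancreatic genes Pnlip, Cpa1, Prss2 and Try4 and the adipocyte genes Adipoq, Plin1 and Lep were at 0 reads. The remaining gene of each list had reads, Cela1 (pancreas) at 10.4 to 27.0 CPM and Cidec (adipocytes) at 2.01 to 12.8 CPM. RNAs without a poly(A) tail (5 genes) took 7.32%, 7.79% and 9.20% of scaled counts in LT and 10.04%, 3.26% and 4.62% in Fpn-LKO, and their part in the group differences was not tested. Slc40a1 itself, the deleted gene, stood at 154, 180 and 126 CPM in LT, against 143, 143 and 176 CPM in Fpn-LKO (log2 fold change 0.01, SE 0.16, adjusted p = 0.995, edgeR quasi-likelihood test), so its total count does not separate the labels. The deposited counts are per gene and do not resolve the floxed exons. Directions below are therefore those of the libraries labelled Fpn-LKO against those labelled LT.

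Of the 57 members, 45 had at least 1 read and 12 had none in any library (Cyp2b19, Cyp2b23, Cyp2c55, Cyp2c65, Cyp2c66, Cyp2j11, Cyp2j12, Cyp2j13, Cyp2s1, Cyp2t4, Cyp2w1 and Cyp3a44). A count of 0 allows a level of up to 0.0603 to 0.0725 CPM here (3 counts per library, counting error only). The test was run on genes with 0 reads in at most 1 library, which kept 37 members of 11 subfamilies. The other 8 (Cyp1b1, Cyp2b10, Cyp2b13, Cyp2d34, Cyp2g1, Cyp2j8, Cyp3a16 and Cyp3a57) had between 0 and 51 reads per library. At the other end, 26 members had at least 1000 reads in every library.

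The promoters of the members on which the results below turn are shown first, from 250 bases before to 50 after the annotated start, as RefSeq gives them on GRCm38.p6. A promoter was listed for 50 of the 57 members. Close relatives can share nearly all of this stretch. Cyp2a4 (chr7:26306942-26307241, plus strand) and Cyp2a5 (chr7:26835089-26835388, plus strand) encode steroid and coumarin hydroxylases and shared 294 of 300 bases, and Cyp2b9 (chr7:26173159-26173458, plus strand) and Cyp2b13 (chr7:26061245-26061544, plus strand) shared 298. Capitals mark the bases that differ within each pair or have no partner in their alignment.
Cyp2a4: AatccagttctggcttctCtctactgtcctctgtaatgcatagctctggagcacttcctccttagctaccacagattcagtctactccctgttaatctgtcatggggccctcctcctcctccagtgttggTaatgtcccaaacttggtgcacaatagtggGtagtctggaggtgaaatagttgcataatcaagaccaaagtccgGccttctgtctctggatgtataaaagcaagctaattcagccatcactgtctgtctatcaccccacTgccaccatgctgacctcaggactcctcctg
Cyp2a5: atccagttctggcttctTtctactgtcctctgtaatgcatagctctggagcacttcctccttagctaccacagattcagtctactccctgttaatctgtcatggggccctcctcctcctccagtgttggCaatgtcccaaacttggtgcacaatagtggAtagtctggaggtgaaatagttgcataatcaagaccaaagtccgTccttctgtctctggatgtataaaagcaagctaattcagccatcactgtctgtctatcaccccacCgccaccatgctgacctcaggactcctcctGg
Cyp2b9: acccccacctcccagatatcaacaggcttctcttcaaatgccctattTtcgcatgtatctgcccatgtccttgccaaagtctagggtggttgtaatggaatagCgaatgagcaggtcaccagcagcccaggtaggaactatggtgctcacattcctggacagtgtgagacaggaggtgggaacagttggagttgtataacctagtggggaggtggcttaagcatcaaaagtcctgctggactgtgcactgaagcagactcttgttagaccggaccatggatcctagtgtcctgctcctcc
Cyp2b13: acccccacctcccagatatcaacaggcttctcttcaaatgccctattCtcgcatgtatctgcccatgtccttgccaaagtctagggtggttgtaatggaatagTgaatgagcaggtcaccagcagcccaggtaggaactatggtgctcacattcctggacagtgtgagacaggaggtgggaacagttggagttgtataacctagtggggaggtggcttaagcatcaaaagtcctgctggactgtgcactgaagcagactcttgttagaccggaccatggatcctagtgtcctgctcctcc

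The next set comes from the Cyp2c cluster, which held both variable and steadier genes, and from Cyp1a1. Cyp2c38 (chr19:39463026-39463325, minus strand) and Cyp2c39 (chr19:39510572-39510871, plus strand, the second of its 2 listed starts) were among the most variable members, Cyp2c69 (chr19:39886720-39887019, minus strand) among the steadier genes of the cluster, Cyp2c70 (chr19:40187237-40187536, minus strand) ran in its own direction, and Cyp1a1 (chr9:57697363-57697662, plus strand) had the largest fold change of the 37 tested members. In the Cyp2c promoters capitals mark TATAAA and CAAAGTCCA on either strand, the second a motif of the kind bound by the nuclear receptor HNF4A. In Cyp1a1 they mark TATAAA and GCGTG, the core of the response element of the aryl hydrocarbon receptor.
Cyp2c38: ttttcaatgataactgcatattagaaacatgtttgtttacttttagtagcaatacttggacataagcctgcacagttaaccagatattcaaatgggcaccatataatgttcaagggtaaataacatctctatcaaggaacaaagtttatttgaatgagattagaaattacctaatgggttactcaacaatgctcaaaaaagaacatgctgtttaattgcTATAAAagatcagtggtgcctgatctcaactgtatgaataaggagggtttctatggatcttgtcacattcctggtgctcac
Cyp2c39: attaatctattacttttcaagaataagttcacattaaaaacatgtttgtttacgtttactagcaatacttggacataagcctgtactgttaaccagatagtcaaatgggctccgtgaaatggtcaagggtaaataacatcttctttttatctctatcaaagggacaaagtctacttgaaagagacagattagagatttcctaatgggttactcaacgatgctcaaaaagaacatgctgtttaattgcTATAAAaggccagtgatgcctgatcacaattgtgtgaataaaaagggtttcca
Cyp2c69: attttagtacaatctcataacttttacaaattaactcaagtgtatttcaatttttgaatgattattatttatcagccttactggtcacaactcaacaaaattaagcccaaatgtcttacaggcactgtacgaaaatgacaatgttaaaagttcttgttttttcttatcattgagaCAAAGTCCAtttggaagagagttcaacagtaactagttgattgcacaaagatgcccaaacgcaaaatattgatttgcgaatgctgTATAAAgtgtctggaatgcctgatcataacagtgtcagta
Cyp2c70: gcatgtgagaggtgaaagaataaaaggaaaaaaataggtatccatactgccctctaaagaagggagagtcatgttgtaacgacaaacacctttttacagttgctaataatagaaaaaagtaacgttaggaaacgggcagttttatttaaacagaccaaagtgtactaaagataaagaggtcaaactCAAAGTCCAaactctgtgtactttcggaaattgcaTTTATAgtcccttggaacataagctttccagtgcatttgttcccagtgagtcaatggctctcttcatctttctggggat
Cyp1a1: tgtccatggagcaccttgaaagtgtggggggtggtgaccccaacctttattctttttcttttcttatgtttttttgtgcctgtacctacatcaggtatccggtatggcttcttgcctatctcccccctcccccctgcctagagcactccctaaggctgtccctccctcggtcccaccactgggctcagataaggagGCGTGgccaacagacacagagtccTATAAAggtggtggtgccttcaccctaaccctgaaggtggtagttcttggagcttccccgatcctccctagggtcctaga

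Searched on both strands, TATAAA was in 26 of the 50 listed member promoters (52%) against 15.7% of all 27025 genes with a listed promoter. CAAAGTCCA was in 8 (16%) against 0.555%. These were Cyp2c40, Cyp2c65, Cyp2c67, Cyp2c68, Cyp2c69, Cyp2c70, Cyp3a11 and Cyp3a16, and the Cyp2c members among them are close relatives, so they are not independent occurrences. GCGTG was in 9 (18%) against 35.2%, and TTCNNNGAA, the element of STAT proteins that carry the growth hormone signal, in 2 (4%) against 9.55%, both in members without reads (Cyp2j11 and Cyp2j12). The Cyp2c promoters that held CAAAGTCCA belonged to steadier members (Cyp2c40, Cyp2c67, Cyp2c68 and Cyp2c69), to a variable one (Cyp2c70) and to one without reads (Cyp2c65).

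Cyp2e1, which oxidizes ethanol and other small molecules in pericentral hepatocytes, was by far the most abundant member. Its level per length was 7004 TPM (the authors' values per transcript length, mean of 6 libraries), 53.1% of the summed TPM of the members and rank 27 among all genes. In CPM it stood at 10856, 8906 and 9175 in LT and 9253, 8456 and 9808 in Fpn-LKO. The groups overlapped, and the fold was 0.951 with a 95% interval from 0.672 to 1.35 (log2 fold change -0.07, SE 0.22, adjusted p = 0.995, edgeR).

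The next members by TPM were well below it. Cyp2d9, a male-specific steroid 16-alpha-hydroxylase, had a mean of 1054 TPM, Cyp2d26 608, Cyp2d10 592 and Cyp2a12 478. Behind these, Cyp2c67, Cyp3a25, Cyp2c70, Cyp2c50 and Cyp2j5, an epoxygenase of arachidonic acid, lay between 308 and 318 TPM and cannot be ranked against each other, since Cyp2c70 alone ran over an 8.86-fold range of CPM. The 10 leading members made up 85.7% of the members' TPM.

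**Figure D1:**
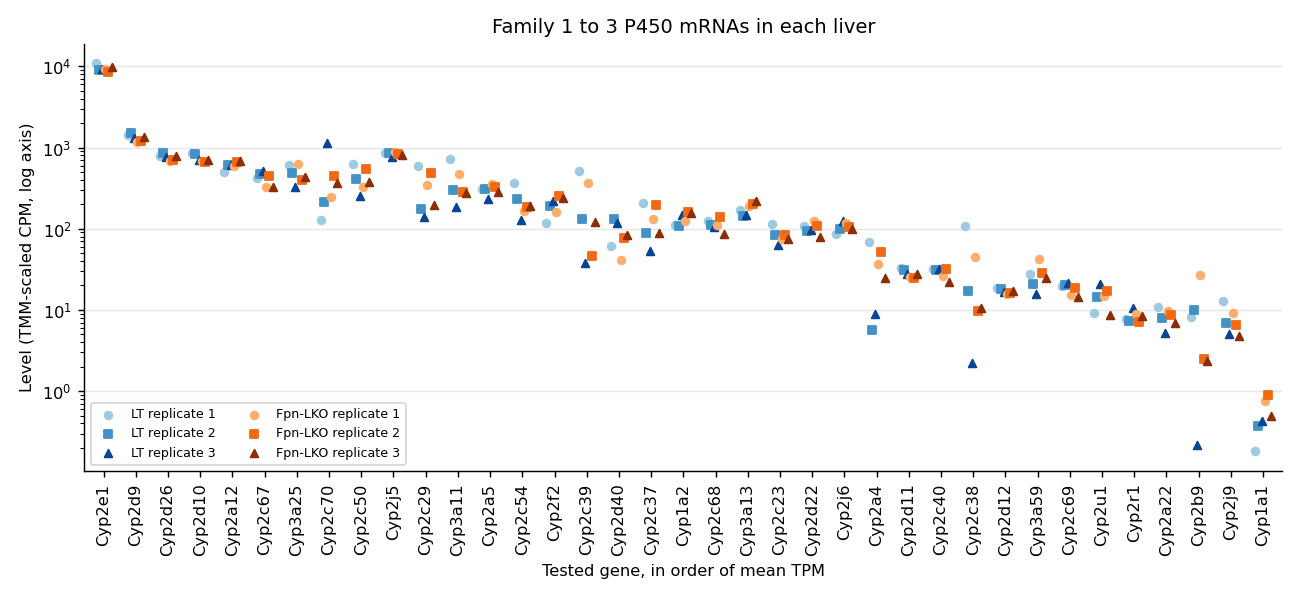
Level of each of the 37 tested members (TMM-scaled CPM, log axis) in the 3 LT (blue) and 3 Fpn-LKO (orange) livers, ordered by mean TPM; each point is 1 liver. Cyp2e1 sits between 8456 and 10856 CPM in all 6, while Cyp2b9, Cyp2c38, Cyp2c39 and Cyp2a4 spread over more than 10-fold.

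No member passed an adjusted p of 0.05 in the comparison of Fpn-LKO with LT (edgeR, smallest adjusted p among the members 0.922), where 0.0232% of the 17274 genes tested did. DESeq2, the exactTest of edgeR and limma on TPM or FPKM also called none. At an unadjusted p under 0.05 there were 3 of 37 members (8.11%) against 4.8% of all genes, 2 higher (background 2.62%) and 1 lower (background 2.19%). The values of the groups did not overlap for 4 of 37 (10.8%) against 10.6% of all genes, of which 2 were higher (background 5.25%) and 2 lower (background 5.34%). Log2 fold changes were positive for 16 members and negative for 21, with a median of -0.06 against -0.004 over all genes. On the log2(TPM + 1) scale the split of 36 members was 20 positive and 16 negative, as the median of all genes moved to 0.08. The 95% interval of the fold change lay within 2-fold either way for 24 of the 37 members, and for the other 13 a 2-fold difference is inside the interval.

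Cyp3a13, a member of the steroid- and drug-oxidizing Cyp3a group that lies apart from the main Cyp3a cluster, had the smallest p. It stood at 169, 142 and 146 CPM in LT, against 192, 203 and 221 CPM in Fpn-LKO. Every Fpn-LKO liver was above every LT liver. The mean was 152 ± 14.7 CPM in LT, against 206 ± 14.5 CPM in Fpn-LKO (SD, n = 3 each), and the fold was 1.35 with an interval from 1.11 to 1.64 (log2 fold change 0.43, SE 0.12, unadjusted p = 0.00827, adjusted p = 0.922, edgeR). The unadjusted p was under 0.05 in the reported fit and all 16 alternatives, from 0.00232 to 0.0339, and the adjusted p was not under 0.05 in any. No other gene matched its transcript at 90% identity. With 3 livers on each side, the smallest two-sided p of an exact permutation test is 0.1.

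Cyp1a1, the classical target of the aryl hydrocarbon receptor, was barely expressed, with 9, 16 and 18 reads in LT, against 36, 42 and 23 reads in Fpn-LKO. These are 0.181, 0.369 and 0.435 CPM against 0.755, 0.8995 and 0.496 CPM, and the groups did not overlap. Its transcript matched that of Cyp1a2 at 93.9% over 528 bases, and since Cyp1a2 is far more abundant some of these few reads may be misassigned. At 9 reads the exact 95% Poisson interval runs from 4.12 to 17.1 reads and at 42 reads from 30.3 to 56.8, for counting error alone. Its fold was 2.19 with an interval from 1.02 to 4.68 (log2 fold change 1.13, SE 0.47, unadjusted p = 0.0455, adjusted p = 0.982, edgeR), and the unadjusted p was under 0.05 in 6 of 14 settings. Cyp1a2, the abundant member of the subfamily and a pericentral enzyme that oxidizes caffeine, stood at 111, 109 and 148 CPM in LT, against 126, 159 and 155 CPM in Fpn-LKO. Those ranges overlapped (log2 fold change 0.26, SE 0.16, adjusted p = 0.982, edgeR). Cyp1b1, found mainly in cells other than hepatocytes, had 0 to 38 reads and was at 0 in 1 liver of each group.

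Cyp2c69 was the only member with a lower value at an unadjusted p under 0.05. It stood at 19.6, 20.3 and 21.5 CPM in LT, against 15.1, 18.8 and 14.3 CPM in Fpn-LKO, without overlap (fold 0.788, interval 0.632 to 0.983, unadjusted p = 0.038, adjusted p = 0.982, edgeR). Its closest relative, Cyp2c40, matched its transcript at 97.7% over 1647 bases. Cyp2c67 and Cyp2c68 in turn matched that of Cyp2c40 at 97.6% and 98.0%. Reads may therefore have been split among all of these genes, and their counts are uncertain. Cyp2c67 was far more abundant, at 423, 469 and 511 CPM in LT, against 322, 439.7 and 325 CPM in Fpn-LKO. Some reads counted for Cyp2c69 may therefore be misassigned, which was not tested. Cyp2c40 was at 31.5, 31.4 and 31.7 CPM in LT, against 26.2, 32.4 and 22.05 CPM in Fpn-LKO, which overlapped. Cyp2d11, whose transcript matches other Cyp2d genes at up to 92.1%, was the other member without overlap on the lower side. Its LT livers had 32.8, 31.3 and 27.6 CPM and its Fpn-LKO livers 25.2, 25.04 and 27.6 CPM, so that the nearest values of the groups are equal at the precision printed (unadjusted p = 0.0717, adjusted p = 0.982, edgeR).

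**Figure D2:**
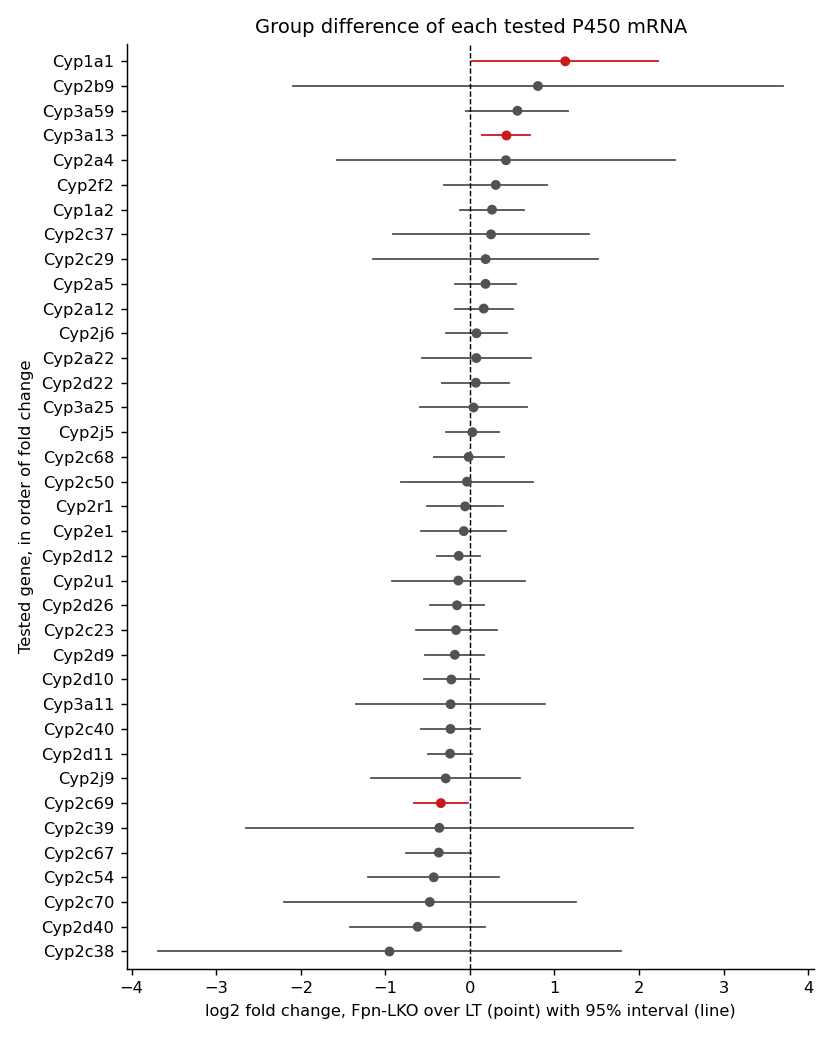
Log2 fold change of Fpn-LKO over LT for the 37 tested members (points) with 95% intervals (lines), from edgeR; red marks an unadjusted p under 0.05. Cyp1a1 (1.13), Cyp3a13 (0.43) and Cyp2c69 (-0.34) are red, and the intervals of Cyp2b9, Cyp2c38 and Cyp2c39 each span more than 10-fold.

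Summed over subfamilies, Cyp2e held 51.7% of the members' CPM, Cyp2d 16.9%, Cyp2c 13.2%, Cyp3a 5.83%, Cyp2a 5.22% and Cyp2j 5.18%. The sums are scores over the members and are given without a test. Cyp2a was the only subfamily of the 11 with a tested member whose groups did not overlap. Among single genes, 10.6% of all tested did not overlap, so 1 of 11 sums is near that share. Its sum was 883, 941 and 852 CPM in LT, against 982, 1046 and 1000 CPM in Fpn-LKO (log2 ratio 0.18). Summed TPM of Cyp2a overlapped, at 738, 699 and 582 against 719, 929 and 787 (log2 ratio 0.27). All 4 Cyp2a members had positive fold changes, and the sum was carried by Cyp2a12 (574 ± 66.2 CPM in LT, against 642 ± 51.7 CPM in Fpn-LKO, SD, n = 3) and Cyp2a5 (282 ± 43.6 and 321 ± 32.7 CPM). Neither gene separated the groups by itself, with adjusted p-values of 0.985 for both (edgeR).

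The Cyp2d genes form a cluster on chromosome 15 and oxidize many amine drugs. Of 7 tested, 6 had negative fold changes. The Cyp2d sum was 3273, 3486 and 3036 CPM in LT, against 2755, 2802 and 3048 CPM in Fpn-LKO, with overlap at 1 liver of each group. Cyp2d9, Cyp2d10, Cyp2d11, Cyp2d12 and Cyp2d40 each matched 9 or 10 other genes at 90% or more, so they are not independent. Cyp2d40 had the largest Cyp2d fold change, with overlap (log2 fold change -0.62, SE 0.34, unadjusted p = 0.111, adjusted p = 0.982, edgeR). Cyp2d9 stood at 1409, 1506 and 1319 CPM against 1180, 1210 and 1348 CPM (log2 fold change -0.18, SE 0.15, adjusted p = 0.985, edgeR). Cyp2d10 was at 851, 838 and 703 CPM in LT, against 680, 667 and 706 CPM in Fpn-LKO (log2 fold change -0.22, SE 0.14). Cyp2d26 was at 792, 865 and 757 CPM against 687, 698 and 786 CPM (log2 fold change -0.15, SE 0.14). Cyp2d9, Cyp2d10 and Cyp2d26 overlapped between groups, and their intervals allow folds between 0.686 and 1.12.

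**Figure D3:**
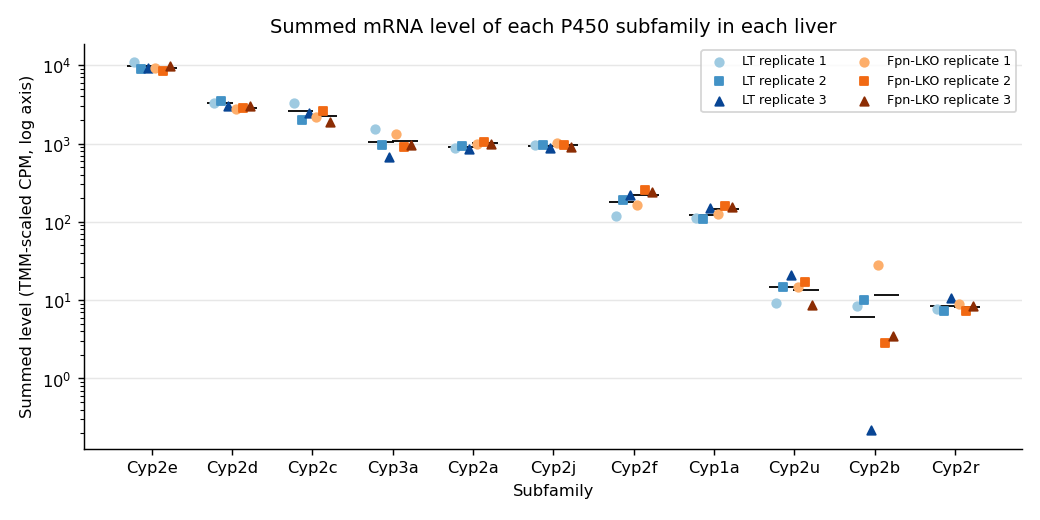
Summed TMM-scaled CPM (log axis) of the 11 subfamilies with a tested member in each of the 6 livers; black lines are group means of 3. Only the Cyp2a points separate by group (852 to 941 in LT, 982 to 1046 in Fpn-LKO), where 10.6% of all single genes tested do, and Cyp2b shows the widest spread.

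The Cyp3a sum was 1536, 948 and 671 CPM in LT, against 1337, 911 and 962 CPM in Fpn-LKO. Within it Cyp3a25 ran from 325 to 633 CPM and Cyp3a11, the main PXR-responsive gene of mouse liver, from 184 to 730 CPM. Both ranges were set by LT livers at the lower end. Cyp3a59, whose transcript is 97.0% identical to that of Cyp3a25, was at 28.0, 20.6 and 15.8 CPM in LT, against 41.8, 28.2 and 25.04 CPM in Fpn-LKO, with overlap (unadjusted p = 0.0641, adjusted p = 0.982, edgeR). Given their identity, a read may belong to either.

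Of the subfamilies with a single member, Cyp2f2, an epoxidizing enzyme of lung and of periportal liver, was at 119, 191 and 221 CPM in LT, against 162, 255 and 240 CPM in Fpn-LKO (log2 fold change 0.31, SE 0.26, adjusted p = 0.985, edgeR). Cyp2r1, a vitamin D 25-hydroxylase, was at 7.69, 7.30 and 10.5 CPM against 8.97, 7.17 and 8.36 CPM (log2 fold change -0.06, SE 0.19). Cyp2u1, a fatty acid hydroxylase, was at 9.28, 14.6 and 20.9 CPM against 14.7, 17.3 and 8.73 CPM (log2 fold change -0.14, SE 0.34). None of these separated the groups. Cyp2g1, an olfactory enzyme, had 6 reads in 1 LT liver and none elsewhere. Cyp2j5 was among the steadiest members, at 859, 849 and 756 CPM in LT, against 882, 834 and 798 CPM in Fpn-LKO (log2 fold change 0.03, SE 0.13, adjusted p = 0.995, edgeR).

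Many members differed more between livers of the same group than genes of like level did. As the measure of spread, the within-group SD of log2(CPM + 0.5) had a median of 0.254 over the 37 members and 0.219 over all genes tested. At 10 CPM or more the medians were 0.248 for 32 members and 0.174 for 6879 genes. Against genes of like level, in bins of 1 log2 unit, 15 members (40.5%) lay above the 90th percentile of their bin, where 10% of all genes lie by construction. Over all levels together 13 members lay above the 90th percentile, and 7 of these were Cyp2c genes. The steady end held other members of the same families. Cyp2j5 ran over a 1.17-fold range of CPM across the 6 livers, Cyp2d12 over 1.18-fold, Cyp2d26 over 1.26-fold and Cyp2e1 and Cyp2d9 over 1.28-fold.

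**Figure D4:**
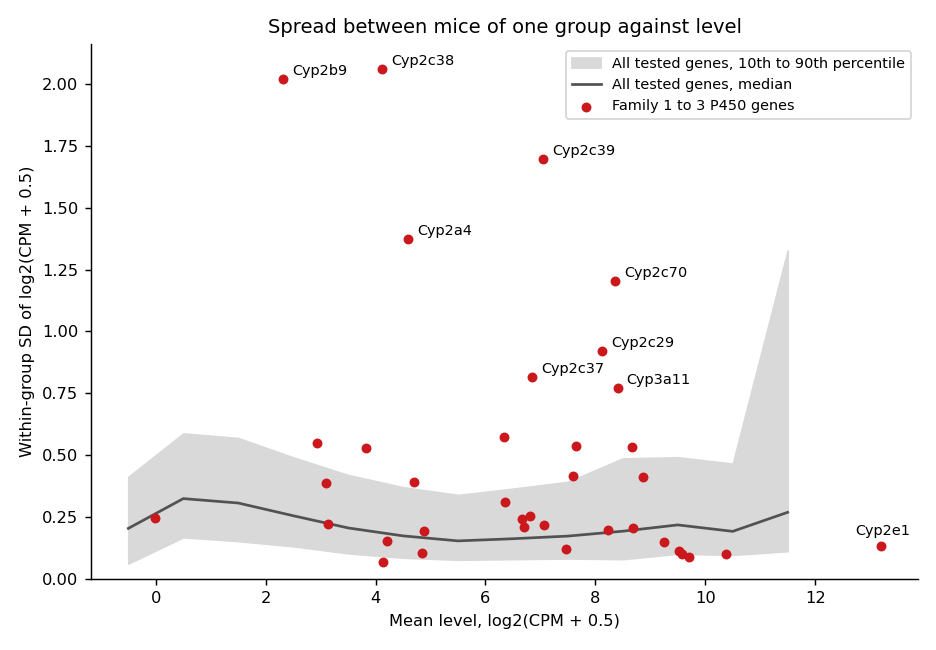
Within-group SD of log2(CPM + 0.5) against mean level for the 37 tested members (red) over the median (line) and the 10th to 90th percentile (grey) of all tested genes in level bins of 1 log2 unit, the last bin being open at its upper end. Cyp2b9 and Cyp2c38 reach an SD near 2, and Cyp2e1 at the highest level is at 0.133.

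Cyp2b9, a gene that is female-biased in mouse liver, had the widest range, 125-fold. It stood at 8.11, 9.93 and 0.218 CPM in LT, against 27.1, 2.46 and 2.35 CPM in Fpn-LKO. A single liver, Fpn-LKO replicate 1, set the higher mean of that group (log2 fold change 0.80, SE 1.24, adjusted p = 0.995, edgeR), and without it the log2 fold change was -1.34. Cyp2b13, with a promoter that differs at 2 of 300 bases and a transcript 91.2% identical, was far lower. It had 0 reads in all 3 LT livers and 41, 6 and 2 reads in Fpn-LKO, and its highest library was again replicate 1. The 2 reads of replicate 3 are under the 3 counts that a library at 0 allows, and no fold is given. Because its transcript resembles that of Cyp2b9, some of its reads may be misassigned. Cyp2b10, the main phenobarbital-inducible member, had 12, 0 and 0 reads in LT, against 18, 13 and 51 reads in Fpn-LKO. Neither Cyp2b10 nor Cyp2b13 was tested, having 0 reads in more than 1 library.

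Cyp2a4 and Cyp2a5 differ little in sequence and a great deal in spread. Cyp2a4, female-biased as background knowledge, was at 69.3, 5.68 and 8.87 CPM in LT, against 36.6, 51.8 and 24.6 CPM in Fpn-LKO, a 12.2-fold range. Cyp2a5 was at 305, 309.6 and 232 CPM against 352, 325 and 286 CPM, a 1.51-fold range. The Fpn-LKO livers lay within the range of the LT livers for Cyp2a4, and its log2 fold change of 0.43 (SE 0.85, adjusted p = 0.995, edgeR) was 2.37 without LT replicate 1. The transcripts of the pair are 98.2% identical over 1739 bases, and how the authors' counting divided shared reads is not known.

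The Cyp2c genes, which oxidize arachidonic acid, retinoids and drugs, lie in a cluster on chromosome 19 in the order Cyp2c55, Cyp2c65, Cyp2c66, Cyp2c29, Cyp2c39, Cyp2c38, Cyp2c67, Cyp2c68, Cyp2c40, Cyp2c69, Cyp2c37, Cyp2c54, Cyp2c50 and Cyp2c70 (chr19:39006940-40187286 on GRCm38), with Cyp2c23 apart at chr19:44005022-44029256. The first 3 in this order had no reads. Neighbours shared an order in the LT livers but not in all Fpn-LKO livers. Cyp2c38 ran from 2.25 CPM in LT replicate 3 to 107 CPM in LT replicate 1, and Cyp2c39, a retinoic acid hydroxylase, from 38.3 to 521 CPM in the same livers. Cyp2c29 ran from 139.7 to 589.5 CPM, again with LT replicate 3 lowest and LT replicate 1 highest. In Fpn-LKO replicate 2 was highest for Cyp2c29 (344, 490.1 and 194 CPM) and lowest for Cyp2c39 (369, 45.7 and 121 CPM) and Cyp2c38 (45.4, 9.70 and 10.6 CPM). The RefSeq spans of Cyp2c39 and Cyp2c38 overlap and their transcripts are 93.6% identical, so their likeness is uncertain, whereas no other gene matched Cyp2c29 at 90%.

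A second variable stretch was Cyp2c37, Cyp2c54 and Cyp2c50. Cyp2c50 stood at 625, 407 and 252 CPM in LT, against 331, 546 and 376 CPM in Fpn-LKO, and the order of the LT livers was the same for Cyp2c54 (366, 229.96 and 128 CPM) and Cyp2c37 (209.6, 89.3 and 52.9 CPM). The Fpn-LKO livers parted, with Cyp2c54 at 167, 183 and 189 CPM and Cyp2c37 at 133, 197 and 88.0 CPM. These transcripts are also alike, at 95.2% to 95.9%. Between the variable stretches lay the steadier Cyp2c67, Cyp2c68, Cyp2c40 and Cyp2c69, none of which ran over more than 1.60-fold. The transcripts of the other genes of this stretch matched that of Cyp2c40 at 97.6% to 98.0%. Their counts are therefore uncertain too, and they are not independent. Cyp2c67 was at 423, 469 and 511 CPM in LT, against 322, 439.7 and 325 CPM in Fpn-LKO, with overlap (log2 fold change -0.37, SE 0.17, unadjusted p = 0.0591, adjusted p = 0.982, edgeR).

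Cyp2c70, which makes muricholic acids from chenodeoxycholic acid in mice, closes the cluster and ran the other way. It stood at 128, 211 and 1135 CPM in LT, against 246, 445 and 369 CPM in Fpn-LKO, so LT replicate 1 was lowest and LT replicate 3 highest. The group means were 491 ± 559 and 353 ± 100.2 CPM (SD, n = 3). The fold (0.72, interval 0.217 to 2.38, adjusted p = 0.995, edgeR) had the opposite sign without LT replicate 3, at a log2 fold change of 1.06. No other gene matched its transcript at 90%.

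**Figure D5:**
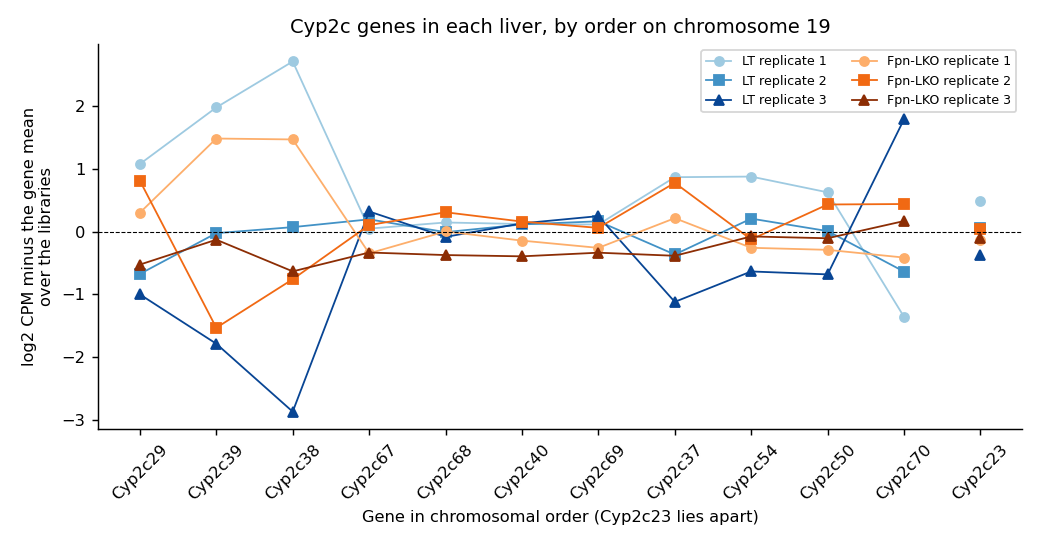
Log2 CPM of the 12 Cyp2c genes with reads in each of the 6 livers, less the mean of each gene over the libraries, in chromosomal order; lines join neighbouring genes of 1 liver. LT replicate 1 lies above and LT replicate 3 below the other livers at Cyp2c29, Cyp2c39 and Cyp2c38, all 6 livers come together from Cyp2c67 to Cyp2c69, and at Cyp2c70 the same LT livers change places.

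LT replicate 1 had the highest value for 15 of the 37 members, against 14.7% of all genes tested, and LT replicate 3 the lowest for 14, against 18.7%. Of the 13 members with the largest spread over all levels, 9 were highest in the first and 8 lowest in the second. These 13 were picked by their spread in the same livers, and no share is given for other genes of like spread. Among them 7 were Cyp2c genes, several with near-identical transcripts, so they are not independent. Leaving LT replicate 1 out gave 24 positive and 13 negative fold changes among the members, in place of 16 and 21. Without it the log2 fold changes of Cyp2c38, Cyp2c39 and Cyp3a11 were 1.17, 1.09 and 0.52, where with it they were -0.95, -0.36 and -0.23.

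Genes known to act on these enzymes were read for the same livers. The order of the LT livers, replicate 1 above 2 above 3, was looked for after the values were seen. It was found for 17 of 37 members (45.9%) and for 17.4% of all genes tested. CAR (Nr1i3) had that order, at 456, 327 and 200 CPM in LT, against 291, 321 and 256 CPM in Fpn-LKO. Of the 20 receptors and liver factors 4 (20%) had it, CAR among them. The reverse order was found for 6 of the 20 (30%), Hnf4a among them, and for 18.9% of all genes tested. PXR (Nr1i2, 85.6, 90.6 and 63.2 CPM in LT) had neither. Of 11 other targets of these receptors 6 had replicate 1 above 2 above 3 and 1 had the reverse. Those with replicate 1 above 2 above 3 included the transporter Slco1a4 at 116, 31.3 and 21.8 CPM and Abcc3 at 277, 173 and 72.9 CPM in LT. Of 10 male-biased genes outside these families none had the order and 4 had the reverse order, which 18.9% of all genes tested had, and their sum was 10674, 18598 and 35268 CPM in LT. Of 7 tested female-biased genes outside the families 4 had the order, with a sum of 2699, 1853 and 459 CPM, most of it Cyp4a10. The male-biased members Cyp2d9, Cyp2u1 and Cyp2a12 summed to 1916, 2138 and 1945 CPM and the female-biased members to 129.3, 67.2 and 62.5 CPM in LT. Of the 4 tested female-biased members 0 had the order and 1 had the reverse, as for the 3 male-biased members. The higher female-biased sum of LT replicate 1 came mostly from Cyp2a4, at 69.3 CPM there against 5.68 and 8.87 CPM in LT replicates 2 and 3. The urinary protein gene Mup7 was at 1545, 11712 and 17339.5 CPM in LT, against 2584, 14125 and 16238 CPM in Fpn-LKO. At an unadjusted p under 0.05 the group comparison gave 3 of 10 male-biased genes, 2 higher and 1 lower, and 0 of 7 tested female-biased genes, and none after adjustment (edgeR). Over all genes tested it gave 4.8%, with 2.62% higher and 2.19% lower. The part of these genes in the spread of the members was not tested. In bulk liver, fewer cells of a type and less RNA per cell cannot be told apart.

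Between the groups, the receptors and liver transcription factors gave 2 of 20 at an unadjusted p under 0.05, both higher and without overlap, and none after adjustment (edgeR). Over all genes tested, 2.62% were higher at that threshold and 5.25% were higher without overlap. Hnf4a, a factor that hepatocyte P450 genes depend on, was at 239, 250.2 and 265 CPM in LT, against 310.3, 344 and 286 CPM in Fpn-LKO (log2 fold change 0.32, unadjusted p = 0.0328, adjusted p = 0.982). The receptors themselves, Ahr, CAR and PXR (Nr1i2), overlapped between groups.

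The redox partners gave 0 of 6 and the heme supply genes 0 of 12, at the same unadjusted threshold and after adjustment (edgeR). Por, which passes electrons to every member, was at 326, 380 and 286 CPM in LT, against 188, 328 and 274 CPM in Fpn-LKO, and Alas1, the first enzyme of heme synthesis, at 1474, 855 and 1185 CPM against 910.3, 970 and 915 CPM. Both overlapped, with log2 fold changes of -0.33 for each and adjusted p-values of 0.982. Of the other receptor targets, 1 of 11 tested passed the unadjusted threshold, the low glutathione transferase Gsta1 (log2 fold change 1.28, unadjusted p = 0.0491, adjusted p = 0.982, edgeR), with overlap. That threshold was passed by 4.8% of all genes tested.

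Because several members are zonated, genes of both ends of the lobule were counted. Of 10 pericentral genes 7 had positive fold changes and 1 had an unadjusted p under 0.05 (edgeR). Among these, and also among the periportal genes, 2 of 10 were higher without overlap and 0 lower. Over all genes tested, 5.25% were higher and 5.34% lower without overlap. The pericentral sum was 4433, 3774 and 3360 CPM in LT, against 6449.6, 4563 and 4897 CPM in Fpn-LKO, without overlap and without a test. Oat and Aldh1a1 carried most of that sum. Of 10 periportal genes 9 were positive and 3 (Sds, Gls2 and Ass1) had an unadjusted p under 0.05, all higher (edgeR). None of the 20 passed the adjusted threshold. Over all genes tested, 49.4% were positive and 4.8% had an unadjusted p under 0.05, with 2.62% on the higher side. The periportal sum was 6853, 6057 and 5803 CPM in LT, against 9033, 8132 and 6158 CPM in Fpn-LKO, with overlap. The pericentral members Cyp2e1 and Cyp1a2 had log2 fold changes of -0.07 and 0.26 beside a median of 0.14 for the pericentral and 0.38 for the periportal list, and -0.004 for all genes.

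Markers of the other cell types of the liver did not separate the groups by their summed level. Of the tested markers, 1 of 5 endothelial and 1 of 5 blood genes had an unadjusted p under 0.05, both higher, and 0 of 7 hepatocyte, 0 of 7 macrophage, 0 of 5 stellate and 0 of 3 bile duct genes did (edgeR). The share over all genes tested was 4.8%, with 2.62% higher. Blood genes ran from 351 to 941 CPM in LT and from 474 to 1243 CPM in Fpn-LKO. Bile duct genes were at 84.4 CPM in LT replicate 3 and between 12.8 and 29.9 CPM in the other livers, and their part in the values of that liver was not tested.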

How the data were processed

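Liver RNA of 6 mice was sequenced, 3 LT and 3 Fpn-LKO. Per the labels the libraries were made with a stranded mRNA kit, whereas the study's methods name a total RNA kit with removal of ribosomal RNA, and which of these was used is not settled by the sources. The authors aligned the reads to mm10, with HISAT2 2.1.0 and Bowtie2 2.3.4.1 listed in the submitters' processing notes, and deposited read counts, FPKM and TPM per RefSeq gene from StringTie 2.1.3b. How reads shared by near-identical genes were divided, and whether counting used strand, is not given in the sources used here.

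The deposited counts were used for all tests and the deposited TPM for levels per length, while the deposited FPKM served in an alternative. Genes were kept if at most 1 library had 0 reads (17274 genes), counts were scaled by TMM, and the groups were compared with the quasi-likelihood test of edgeR 4.0.16 in R 4.3.3, with Benjamini-Hochberg adjustment over all genes kept and a threshold of 0.05. Intervals of folds are 95%, from the SE and the test's degrees of freedom. Depth was 43086184 to 47778683 counts. No sample or column was left out. P-values set the group difference against the spread between livers of a group, estimated in part from all genes. They concern these 6 livers only. Members given in full had an unadjusted p under 0.05, were among the 10 with the highest mean TPM, or led their subfamily by TPM; others appear by range or were picked with their values in view. The members and gene lists were chosen with earlier results of these data known, and the motifs after them. Transcript identity came from BLAST 2.17.0 on annotated transcripts (90% or more), and promoters from RefSeq on GRCm38.p6, the build of mm10. The fits were tested on simulated counts. Alternatives were RLE size factors, DESeq2 1.42.0, the exactTest, robust dispersions, 2 other filters, a replicate block, limma 3.58.1 on log2(TPM + 1), log2(TPM + 0.1) and log2(FPKM + 1) for genes with a mean of at least 1, and leaving out each library. The values of some listed genes are not reported here.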

Additional observations from a re-analysis of the deposited data

How the results depend on the processing

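No member was called in any of the 16 alternatives, and the unadjusted p-values under 0.05 ranged from 1 to 6 members over them. Calls over all genes were 4 in the reported fit, 72 with DESeq2, 63 with the exactTest, 7 with limma on log2(TPM + 1), 7 on log2(TPM + 0.1), and 0 to 6 when each library was left out; the cause of these shifts was not tested. Same-numbered mice share only a number (correlations of their deviations 0.21, 0.01 and 0.10), and not every library correlated best with its own number. A fit with this replicate block called 0 genes over all and no member, with 6 members at an unadjusted p under 0.05 in place of 3.

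Directions changed only for log2 fold changes whose intervals include 0. Under the replicate block Cyp2c50 was at 0.036 and Cyp2c70 at 0.19. On log2(TPM + 1), log2(TPM + 0.1) and log2(FPKM + 1) Cyp2c50 was at 0.12, 0.12 and 0.041 and Cyp2c70 at 0.22, 0.23 and 0.14, and Cyp2e1 at 0.023 on each TPM scale. TPM moved the median of all genes to 0.08 and 0.10. Leaving out each library gave -1.34 to 1.35 for Cyp2b9, -0.30 to 0.34 for Cyp2c50, -0.93 to 1.06 for Cyp2c70, -0.12 to 0.021 for Cyp2e1, -0.027 to 0.065 for Cyp2j5, -0.15 to 0.12 for Cyp2r1, -0.39 to 0.18 for Cyp2u1, -0.19 to 0.26 for Cyp3a25 and -0.12 to 0.14 for Slc40a1. The log2 ratio of summed TPM was 0.27 for Cyp2a and 0.12 for Cyp2j, against 0.18 and 0.03 for summed CPM. With 3 livers a group, depth limits the members under about 1 CPM, and the spread between mice limits Cyp2b9, Cyp2c38, Cyp2c39, Cyp2a4 and Cyp2c70.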
